A study of Danio rerio with 12 samples.

Results

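RNA of 73 DNA replication and cell cycle genes was examined in zebrafish testis exposed to the pituitary hormone Fsh. The genes were picked by symbol, ignoring case: symbols that begin with MCM or ORC and a digit, with CCNA, CCNB1, CCNB2, CCNB3, CCND or CCNE, with CDK and a digit, with CDC6, CDC7, CDC20, CDC25 or CDC45, or with AURK, PLK or BUB, and the symbols PCNA, CDT1, GMNN, MKI67 and TOP2A. They are 73 of the 33737 Ensembl gene IDs in the count files, of which 21939 had a symbol. The spelling also took in 11 genes that only share letters with the family they resemble, such as CDC73 and mcm3ap, and these are kept apart in the account. The symbols MCM2, MCM7, CCND1, CCNE1, CCNE2, ORC2, ORC4 and CDC20 were paired with no ID and those genes were not analysed here.

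Each group held 6 libraries of testis tissue from adult wild-type zebrafish, kept for 48 h. In one group the tissue was given trilostane plus Fsh (called Fsh libraries), and in the other trilostane alone (called control libraries). Trilostane, an inhibitor of steroid hormone synthesis, was thus present in all 12 libraries, so that the comparison asks what Fsh does to these RNAs when steroid production is blocked. The submitters call the 6 libraries of a group biological replicates, without saying whether each is a separate fish, so p-values measure the spread between these libraries. Whole tissue was used, and fewer cells of a type and less RNA per cell cannot be told apart in it.

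A dividing cell loads the MCM helicase onto replication origins with the origin recognition complex (ORC), CDC6 and CDT1, then fires those origins with CDC7 and cyclin-dependent kinases (CDKs) and copies DNA at forks where PCNA clamps the polymerases. Cyclins A and B with CDK1 then drive the cell into mitosis, where Aurora and Polo-like kinases build the spindle and BUB proteins check the attachment of chromosomes. In the testis, spermatogonia divide by mitosis and replicate once more before meiosis, Sertoli cells can also divide, and Fsh is the hormone that acts through its receptor on the somatic cells that support the germ cells.

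Libraries held between 6735718 and 11367899 counts in the Fsh group and between 4695095 and 11497588 counts in the control group. Levels are given as CPM, counts relative to library size, with edgeR's TMM scaling factors. These lay between 0.8909 (control library 3) and 1.0479 (control library 6). A count of 0 would allow up to 0.259 to 0.641 CPM, depending on the library. DDX4, the vasa gene of germ cells, averaged 476 ± 78.8 CPM in Fsh libraries and 438 ± 112 CPM in control libraries (SD, n = 6 each), and SYCP1, of the synaptonemal complex of meiosis, averaged 1650 ± 259 CPM in Fsh libraries and 1800 ± 334 CPM in control libraries. Defining germ cell genes of a testis were thus present in both groups.

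One control library and one Fsh library stood apart from the rest of their group in the replication genes. In control library 3, all 16 tested licensing and helicase genes lay below their own mean over the 12 libraries, by a median of 0.84 on the log2 scale (median deviation -0.84), and the polymerase and fork genes deviated by a median of -0.58. The other 5 control libraries had licensing medians between -0.20 and 0.07. In Fsh library 5 the licensing median was -0.13, with 12 of 16 genes below their mean, while the other 5 Fsh libraries had medians between 0.16 and 0.34. Control library 2 (-0.20, 14 of 16 below) and control library 5 (-0.15, 12 of 16 below) had lower medians than Fsh library 5. The mitotic genes did not share the low position of control library 3, since 9 of 11 lay above their mean there, with a median of 0.14. Fsh library 5 and control library 3 had the lowest summed level of undifferentiated spermatogonia markers in their groups. The levels were 1740 CPM in Fsh library 5 against 2260 to 2660 CPM in the other Fsh libraries, and 1690 CPM in control library 3 against 2120 to 2870 CPM in the other control libraries. Summed meiosis markers were at 2220 CPM in Fsh library 5, against 3410 to 3570 CPM in the other 5 Fsh libraries, and at 3680 CPM in control library 3, within the 2560 to 3690 CPM of the other control libraries. Abundant genes weigh most in such sums. Gene by gene, 15 of 18 meiosis markers lay below their mean in control library 3 (median deviation -0.33). The medians were -0.63 in Fsh library 5, -0.48 in control library 2 and -0.44 in control library 6. Spermatid markers went the other way in control library 3, where all 10 lay above their mean (median deviation 0.40). Their sum there was 1470 CPM, against 942 to 1290 CPM in the other control libraries. In Fsh library 5 it was 1100 CPM, within the 1030 to 1480 CPM of the other Fsh libraries. Fsh library 4, at 1480 CPM, also had all 10 above their mean (0.36). Summed leukocyte markers were at 561 CPM in Fsh library 5, against 243 to 363 CPM in the other Fsh libraries, and at 622 CPM in control library 3, second to the 642 CPM of control library 2. The part of these cell type levels in the results was not tested. For some gene groups and some genes, results are given with and without Fsh library 5 or control library 3. The fit with both left out, also given for some groups, was chosen after seeing the data. For other licensing genes the lowest fold change over fits with single libraries left out is given.

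**Figure D1:**
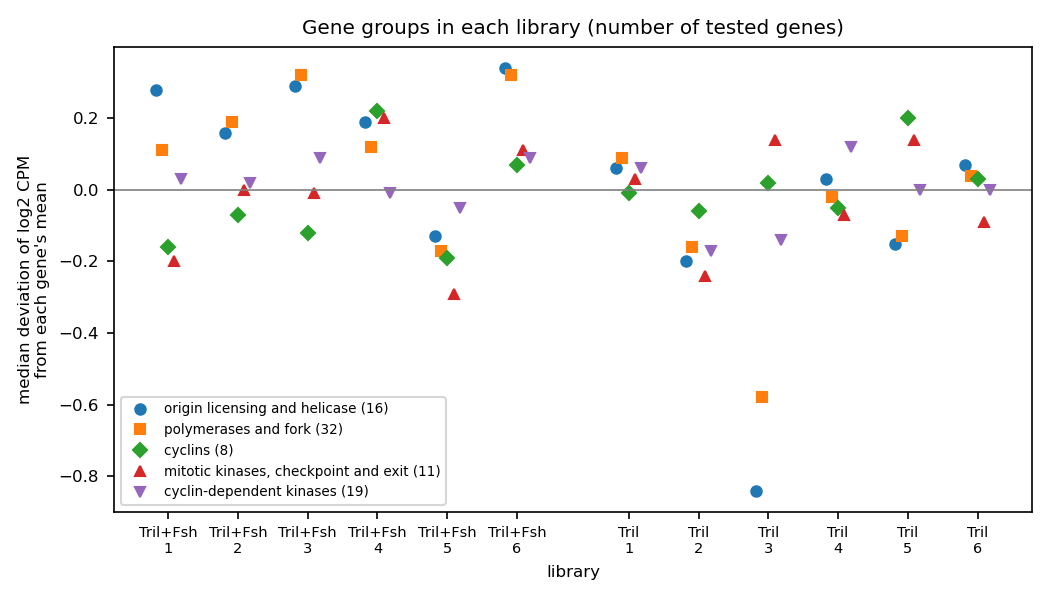
Median deviation of each gene group in each library (vertical axis, log2 CPM relative to each gene's mean over 12 libraries), with Tril+Fsh libraries on the left and Tril (trilostane alone) libraries on the right. Each symbol is the median of 1 group of tested genes. The licensing group is at -0.84 and the polymerase group at -0.58 in control library 3, and both are below 0 in Fsh library 5 (-0.13 and -0.17).

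No gene of the set changed at an adjusted p under 0.05. All p-values are from edgeR's quasi-likelihood test, adjusted by the Benjamini-Hochberg method over all 19317 genes tested unless called unadjusted, and fold changes are log2 of Fsh over control. A ± after a CPM mean is the SD of 6 libraries, and after a fold change its standard error. Of the 73 genes, 69 had enough counts to be tested and 0 of the 69 passed, beside 1.63% of all tested genes (315 genes, 167 higher and 148 lower in Fsh libraries). At an unadjusted p under 0.05 there were 14 of the 69 (20.3%), 9 higher and 5 lower, beside 17.4% of all tested genes. DESeq2 called 3, MCM9, ORC6 and one copy of PLK2, beside 5.51% of all genes it tested, and limma-voom called 0. The median log2 fold change of the 69 was 0.01, with 37 above 0 and 32 below, and the median of all tested genes was 0.00. The CPM of the groups did not overlap in 3 of the 69 (PLK2, PCNA and ORC3, all higher in Fsh libraries), which is 4.35%, beside 1.93% of all tested genes.

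The data bounded the possible changes fairly closely for many genes of the set, though less so for the licensing genes. The 95% interval of the log2 fold change lay within a 2-fold change in either direction for 62 of the 69 genes, and within a 1.5-fold change for 39. Among the 16 licensing and helicase genes these counts were 13 and 4. Tested members had between 242 and 72501 reads over the 12 libraries, with a median of 4193. The spread of log2 CPM between libraries of one group had a median SD of 0.26 over the members, against 0.31 over all tested genes.

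**Figure D2:**
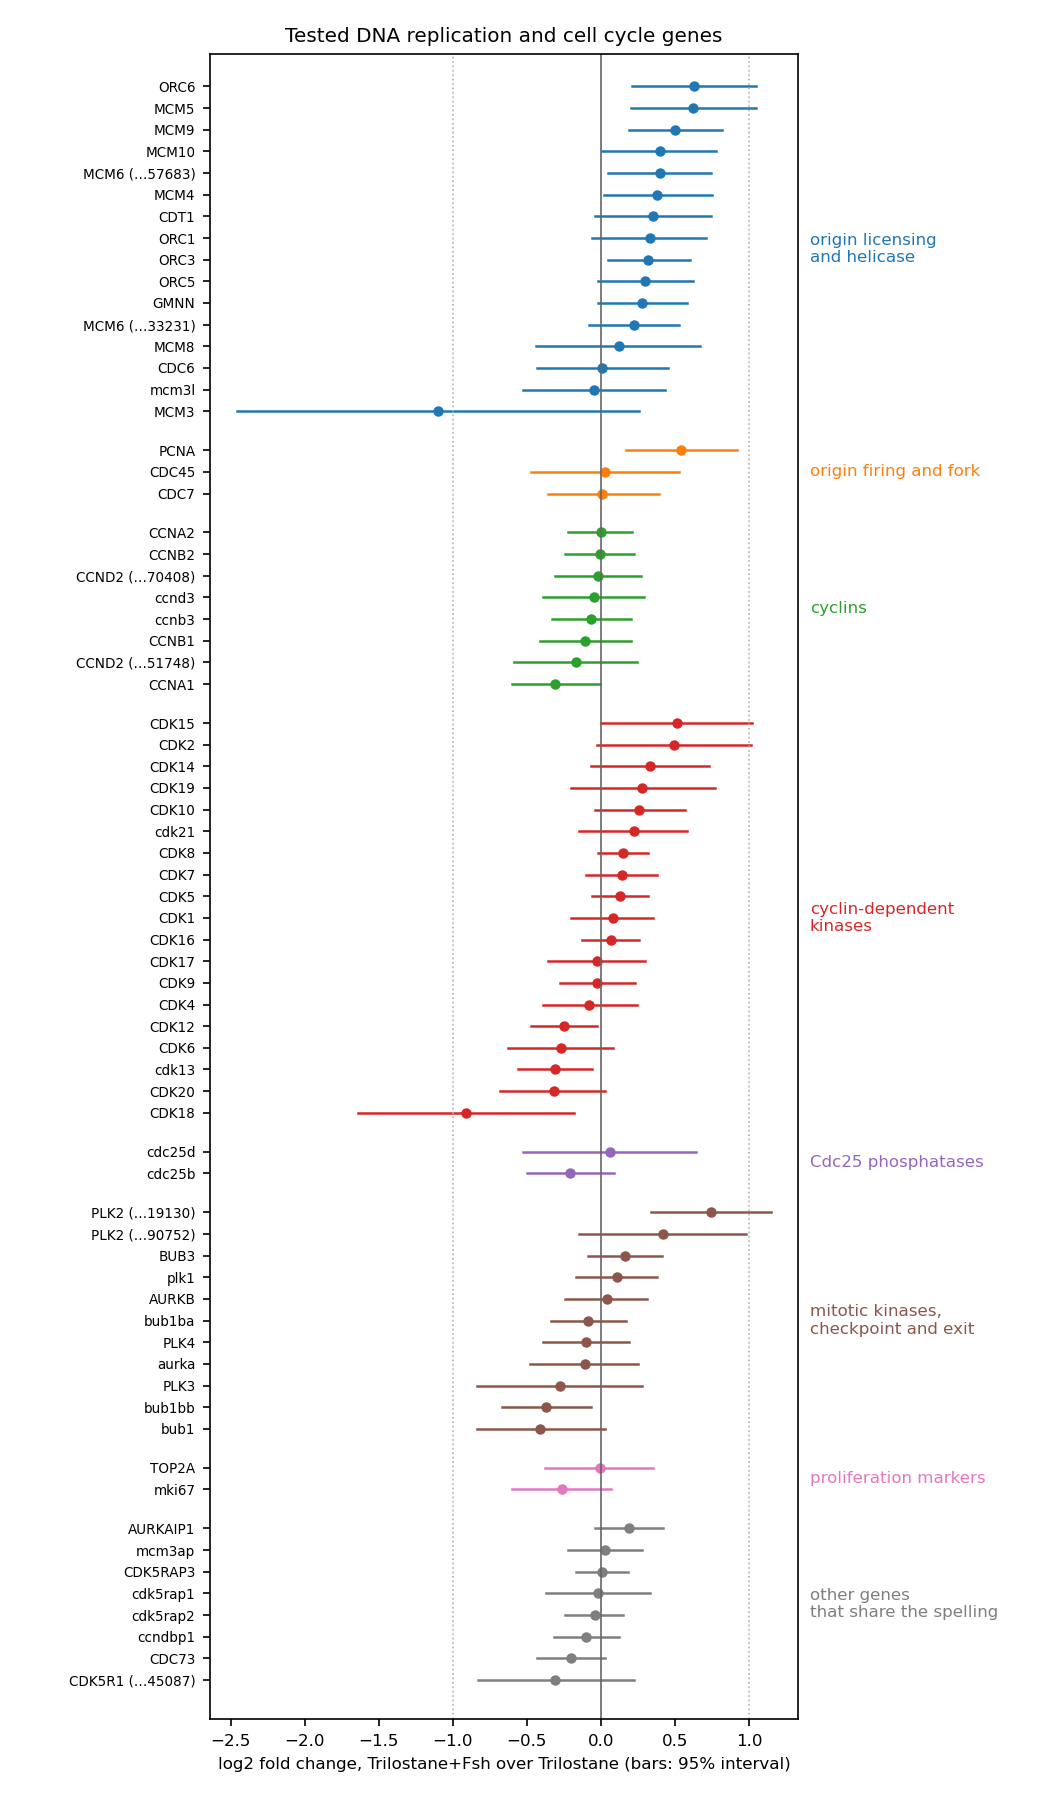
Log2 fold change of each tested gene, Trilostane+Fsh over Trilostane (horizontal axis), with its 95% interval, sorted within each role; the digits in brackets end the ID of genes that share a symbol. Points run from -1.10 (MCM3) to 0.74 (PLK2), and none passed an adjusted p of 0.05.

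Genes of origin licensing and of the helicase mostly averaged higher in Fsh libraries, although none of the 16 passed the test. Fold changes were above 0 for 14 of the 16, with a median log2 of 0.32, and 7 (43.8%) had an unadjusted p under 0.05, all of them higher. The 16 include MCM8 and MCM9, which form a separate helicase, and GMNN, the inhibitor of CDT1. MCM9 was among the 7. Over all tested genes, 50.3% were above 0 and 17.4% had such a p. Without control library 3 the median was 0.21 with 13 of 16 above 0 and 5 under the unadjusted threshold. Without Fsh library 5 the median was 0.35, with 15 above 0. With both libraries left out it was 0.25, with 14 above 0 and 9 under the threshold. Both libraries had been singled out by the values of these same genes. The count of 7 was lowest, at 4 (25%), without Fsh library 3. Over all tested genes, the share with an unadjusted p under 0.05 was 15.5% without control library 3 and 14.1% without Fsh library 3. It was 19.8% with Fsh library 5 and control library 3 both left out.

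Some markers of other testis cell types differed between the same groups, in which 1.63% of all tested genes were called. Of 11 Sertoli cell genes 4 rose (GJA1, inha, igf3 and gsdf), with a median log2 fold change of 0.37 over the list. The 3 below 0 were NR0B1 (-0.78 ± 0.28, adjusted p = 0.164), ALDH1A2 (-0.11) and FSHR (-0.11). Summed Sertoli levels were 1490 to 2020 CPM in Fsh libraries and 1480 to 1730 CPM in control libraries. Most of this was ALDH1A2, which averaged 1100 CPM in Fsh libraries and 1190 CPM in control libraries. Of 11 Leydig cell genes 2 rose (HSD11B2 and insl3), with a list median of 0.78. The 4 below 0 were lhcgr (-0.36), HSD17B3 (-0.09), hsd3b2 (-0.04) and a copy of CYP11A1 (-0.01). Summed Leydig levels were 341 to 748 CPM in Fsh libraries and 108 to 333 CPM in control libraries. Of 18 tested leukocyte genes, out of 23 listed, 15 were below 0 with a median of -0.42, 2 fell (cd4-1 and ifng1), and one of 3 genes with the symbol MPEG1 was near 0 in all libraries. Summed leukocyte levels were 243 to 561 CPM in Fsh libraries and 385 to 642 CPM in control libraries. Among germ cell lists, meiosis genes had a median of 0.12, with 15 of 18 tested above 0 (83.3%, beside 50.3% of all tested genes). Their fold changes ran from -0.97 to 0.98. Spermatid genes had a median of 0.02, with 5 of 10 above 0. Undifferentiated spermatogonia genes had a median of -0.02, with 6 of 12 above 0 and fold changes from -1.59 to 0.29. In each of these lists 0 genes were called. The part of these cell type levels in the values of the replication genes was not tested.

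Among the subunits of the helicase ring, MCM5 (ENSDARG00000019507) had the highest fold change. Its lowest, median and highest CPM were 96.5, 124 and 155 in Fsh libraries, and 42.5, 83.6 and 117 in control libraries. The ranges overlapped only in that control library 6, at 117 CPM, reached above the 3 lowest Fsh libraries, at 96.5, 114 and 115 CPM, and each of the 6 Fsh libraries exceeded the control mean. The log2 fold change was 0.62 ± 0.20 (95% interval 0.20 to 1.05, adjusted p = 0.125). Control library 3 was the lowest of the 12, and without it the fold change was 0.49 ± 0.15 (adjusted p = 0.137). MCM6 (ENSDARG00000057683) had 131, 170 and 177 CPM in Fsh libraries as its lowest, median and highest values, and 69.3, 131 and 155 CPM in control libraries, with a log2 fold change of 0.40 ± 0.16 (adjusted p = 0.217). A second gene with the symbol MCM6 (ENSDARG00000033231) averaged 17.3 ± 2.93 CPM in Fsh libraries and 14.8 ± 2.1 CPM in control libraries, a difference of 0.22 ± 0.14 on the log2 scale (adjusted p = 0.455). MCM4 averaged 128 ± 18.5 CPM in Fsh libraries and 98.3 ± 26 CPM in control libraries (log2 fold change 0.38 ± 0.17, adjusted p = 0.268), and 5 of 6 Fsh libraries lay above the control mean. For MCM4, MCM5 and the first MCM6 the control libraries spread more widely than the Fsh libraries, and the groups overlapped. Control library 3 was also the lowest for MCM4 and the first MCM6, at 60 and 69.3 CPM. With single libraries left out, the fold changes of these genes fell as low as 0.27 for MCM4 and 0.28 for MCM6.

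MCM3, which encodes another subunit of the same ring, had a fold change below 0, unlike its partners, and varied widely between libraries. Its values in Fsh libraries 1 to 6 were 18.5, 1.89, 1.57, 19.2, 15.9 and 2.92 CPM, and in control libraries 1 to 6 they were 42.7, 8.92, 9.21, 34.7, 22.9 and 12.2 CPM. Values within a group thus spanned a wide range, and 3 of the 6 Fsh libraries were at or below 2.92 CPM. All 6 Fsh libraries lay below the control mean, yet the groups overlapped. The log2 fold change was -1.10 ± 0.63, with a 95% interval of -2.46 to 0.26 that includes 0 (adjusted p = 0.398). The SD of MCM3 between libraries of one group was 1.36 on the log2 scale, against the median of 0.26 over the set. A second MCM3-like gene, mcm3l, had little RNA and averaged 2.94 ± 0.892 CPM in Fsh libraries and 3.03 ± 0.515 CPM in control libraries (log2 fold change -0.05 ± 0.22, adjusted p = 0.934). These 2 were the licensing genes with fold changes below 0.

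**Figure D3:**
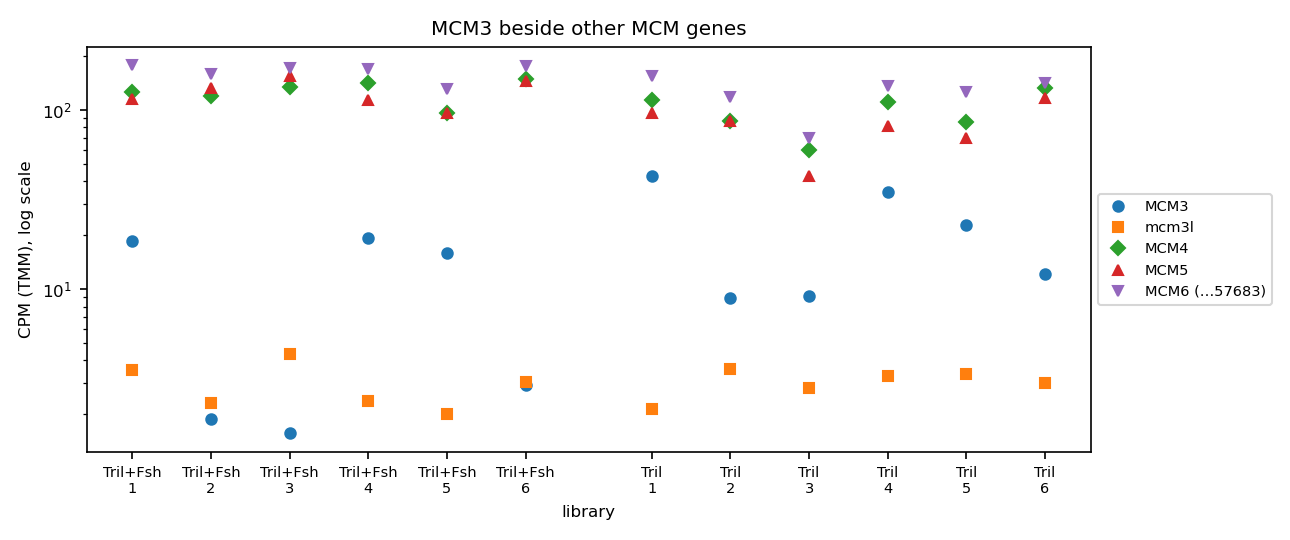
CPM (log axis) of MCM3 and of 4 other MCM genes in each library, Tril+Fsh libraries on the left and Tril libraries on the right. MCM3 spreads from 1.57 to 42.7 CPM while each of the others varies far less; gene lengths were not used, so the vertical order of the genes carries no comparison of levels.

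The genes that recognise origins also averaged higher in Fsh libraries without passing the test. ORC6 (ENSDARG00000075682), a subunit of the origin recognition complex, had 11.5, 12.5 and 15.2 CPM as the lowest, median and highest values in Fsh libraries, and 4.35, 8.24 and 11.8 CPM in control libraries. The groups overlapped narrowly, and the log2 fold change was 0.63 ± 0.19 (95% interval 0.21 to 1.05, adjusted p = 0.115), or 0.50 ± 0.15 without control library 3. ORC3, of the same complex, had 43.7, 45.3 and 51 CPM in Fsh libraries and 23.4, 40.1 and 42.7 CPM in control libraries, so that the groups did not overlap. Its log2 fold change was 0.32 ± 0.13 (adjusted p = 0.215), and 0.22 ± 0.08 without control library 3, which held the value of 23.4 CPM. ORC1 averaged 22 ± 2.91 CPM in Fsh libraries and 17.5 ± 4.41 CPM in control libraries (adjusted p = 0.369). ORC5 averaged 25.2 ± 2.46 CPM in Fsh libraries and 20.4 ± 4.66 CPM in control libraries (adjusted p = 0.32). Control library 3 was the lowest for ORC1 and ORC5, at 9.08 and 13.6 CPM. With single libraries left out, their log2 fold changes of 0.33 and 0.30 fell as low as 0.19 and 0.20. All 6 Fsh libraries exceeded the control mean for each of these 4 ORC genes, although control library 3 lowered those means. For ORC1 the lowest Fsh library, at 18.3 CPM, lay below the control median of 18.5 CPM.

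The loading factors and MCM10 had log2 fold changes between 0.01 and 0.40. CDT1, which brings the helicase to origins, averaged 29.9 ± 5.27 CPM in Fsh libraries and 23.5 ± 5.87 CPM in control libraries (log2 fold change 0.35 ± 0.18, adjusted p = 0.343). GMNN, the inhibitor of CDT1, averaged 15.8 ± 2.3 CPM in Fsh libraries and 13 ± 2.05 CPM in control libraries (0.28 ± 0.14, adjusted p = 0.325). CDC6, the ATPase that works with ORC, averaged 41.1 ± 4.41 CPM in Fsh libraries and 40.9 ± 13.4 CPM in control libraries, a log2 difference of 0.01 ± 0.20. MCM10, which acts when the helicase starts to unwind DNA, averaged 23.4 ± 3.19 CPM in Fsh libraries and 17.8 ± 4.47 CPM in control libraries (0.40 ± 0.18, adjusted p = 0.27). None of these 4 genes passed the test. Control library 3 was the lowest library for each of them. With single libraries left out, fold changes fell as low as 0.23 for CDT1, 0.20 for GMNN, 0.27 for MCM10 and -0.14 for CDC6.

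MCM8 and MCM9 form a separate helicase that is known for its part in recombination and germ cell development. MCM9 (ENSDARG00000013528) had 21.8, 32.5 and 35.3 CPM as lowest, median and highest values in Fsh libraries and 16.9, 21.7 and 25.9 CPM in control libraries. The lowest Fsh value was library 5, and without it the log2 fold change of 0.50 ± 0.15 (adjusted p = 0.1) became 0.58 ± 0.14 (adjusted p = 0.036). Of the 12 fits that left out a single library, 1 called MCM9, and the adjusted p ranged up to 0.199. The fit without Fsh library 5 called 317 genes higher and 441 lower, against 167 and 148 with all libraries. MCM8 averaged 65.2 ± 19.1 CPM in Fsh libraries and 60.2 ± 22 CPM in control libraries, and its log2 fold change was 0.12 ± 0.26 (adjusted p = 0.861). Whether the 2 genes differed from each other in their response was not tested.

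**Figure D4:**
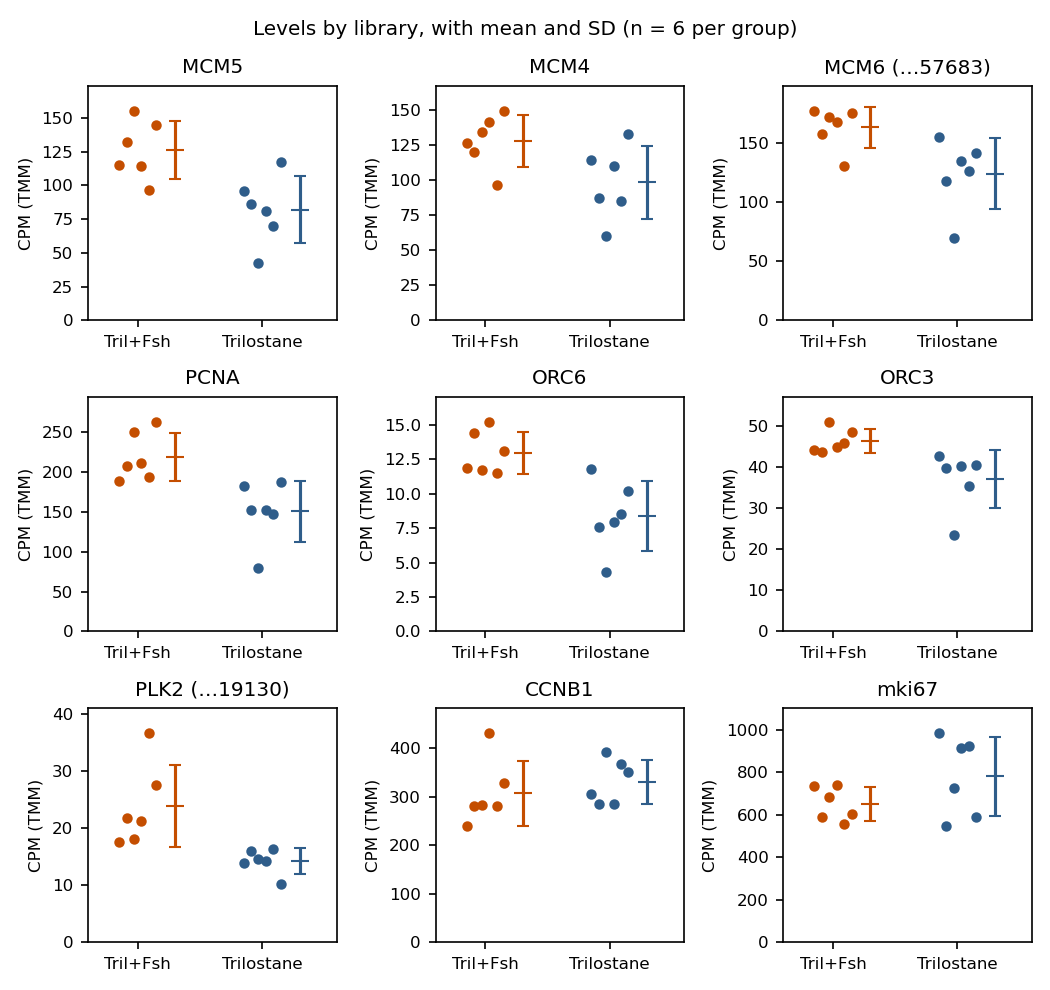
CPM of 9 genes in each library (points), with the mean and SD of 6 libraries beside them, Tril+Fsh on the left of each panel and Trilostane on the right. PCNA, ORC3 and PLK2 (ENSDARG00000019130) do not overlap between groups; the lowest Trilostane value of MCM4, MCM5, MCM6, PCNA, ORC6 and ORC3 belongs to control library 3 in each case.

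At the fork, PCNA (ENSDARG00000054155), the sliding clamp, had 189, 209 and 263 CPM as its lowest, median and highest values in Fsh libraries and 80.1, 153 and 188 CPM in control libraries. All 6 Fsh libraries lay above all 6 control libraries, the nearest pair being 189 and 188 CPM. The log2 fold change was 0.54 ± 0.17 (95% interval 0.17 to 0.92, adjusted p = 0.126). Without control library 3, at 80.1 CPM, it was 0.41 ± 0.12 (adjusted p = 0.107). CDC45, a partner of the helicase, averaged 32 ± 7.48 CPM in Fsh libraries and 31.5 ± 10.7 CPM in control libraries, and CDC7, the kinase that fires origins, averaged 36.1 ± 5.91 CPM in Fsh libraries and 35.8 ± 9.14 CPM in control libraries. Their log2 fold changes were 0.03 ± 0.23 and 0.01 ± 0.17, so that the estimate for PCNA stood alone among the 3.

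Other genes of the replication machinery, taken from a list of DNA polymerases, clamp loaders, single-strand binding proteins and fork enzymes, also lay mostly above 0. Of 32 tested, 0 passed the test, 28 had fold changes above 0 with a median of 0.28, and 12 (37.5%) had an unadjusted p under 0.05, 11 of them higher. Over all tested genes, 50.3% were above 0 and 17.4% had such a p. The count of 12 was 8 (25%) without control library 3, Fsh library 3 or Fsh library 6, and 16 (50%) without Fsh library 5. The shares of all tested genes in these 4 fits were 15.5%, 14.1%, 14.4% and 21.2%. RNASEH2A, a subunit of the nuclease that removes RNA from DNA, had the smallest p of the list, with 22.1 ± 1.85 CPM in Fsh libraries and 15.1 ± 3.62 CPM in control libraries (0.56 ± 0.16, adjusted p = 0.0881, and 0.0164 with DESeq2). GINS1, of the complex that activates the helicase, had an adjusted p of 0.131 with all libraries and 0.0265 without Fsh library 5 (named after its values were seen). No other fit that left out a single library called GINS1. The median was 0.20 with 25 of 32 above 0 without control library 3, and 0.24 with 27 of 32 above 0 without both libraries that stood apart. Genes of deoxynucleotide supply were above 0 in 7 of 7 tested with a median of 0.25, and 3 had an unadjusted p under 0.05, or 1 without control library 2. TYMS, the enzyme that makes thymidylate, averaged 36.6 ± 4.77 CPM in Fsh libraries and 24.8 ± 8.12 CPM in control libraries (0.57 ± 0.20, adjusted p = 0.164).

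Most cyclins gave estimates close to 0. Of the 8 tested, 0 passed the test, the median log2 fold change was -0.06, and all 8 were below 0. Of these, 1 (12.5%) had an unadjusted p under 0.05, beside 17.4% of all tested genes. With library size as the only scaling 3 of the 8 were above 0, and with upper quartile scaling 2. With single libraries left out, 0 (without Fsh library 2 or control library 1) to 3 (without Fsh library 5 or control library 5) were above 0. With Fsh library 5 and control library 3 both left out, 3 were above 0. CCNA2, the S phase and mitotic cyclin A, had 178, 209 and 234 CPM as lowest, median and highest values in Fsh libraries and 189, 205 and 239 CPM in control libraries. Its 95% interval ran from -0.22 to 0.21 on the log2 scale. CCNB1, a partner of CDK1 in mitosis, averaged 307 ± 67.2 CPM in Fsh libraries and 331 ± 45.7 CPM in control libraries (95% interval -0.41 to 0.20, adjusted p = 0.747), and Fsh library 4, at 431 CPM, was the highest of the 12. CCNB2 averaged 46.2 ± 6.6 CPM in Fsh libraries and 46.5 ± 3.93 CPM in control libraries, and ccnb3 averaged 237 ± 33.5 CPM in Fsh libraries and 249 ± 38.5 CPM in control libraries. For CCNA2, CCNB1, CCNB2 and ccnb3 the 95% intervals, each for a single gene, lay within a 1.5-fold change in either direction.

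CCNA1, the cyclin A that in mice is needed for male meiosis, was the cyclin with the smallest p. Its lowest, median and highest levels were 46.9, 57.5 and 85.8 CPM in Fsh libraries and 62.9, 75.8 and 84.2 CPM in control libraries. The highest value of all 12 was thus in an Fsh library although 5 of the 6 Fsh libraries lay below the control mean. The log2 fold change was -0.31 ± 0.14 (95% interval -0.60 to -0.01, unadjusted p = 0.0441, adjusted p = 0.271). The tested D-type cyclins, which link growth signals to entry into the cycle, had log2 fold changes between -0.17 and -0.02. CCND2 (ENSDARG00000070408) averaged 55.2 ± 7.67 CPM in Fsh libraries and 56 ± 10.3 CPM in control libraries, and ccnd3 averaged 37.4 ± 6.66 CPM in Fsh libraries and 38.7 ± 8.73 CPM in control libraries. The other CCND2 gene (ENSDARG00000051748) had 10.8, 14.8 and 26.8 CPM in Fsh libraries, where library 5 was far above the rest, and 15.9, 17.2 and 22 CPM in control libraries. Its log2 fold change was -0.17 ± 0.19 with all libraries and -0.39 ± 0.13 without Fsh library 5 (adjusted p = 0.693 and 0.109). The gene ccndx had 23 counts in all Fsh libraries and 19 in all control libraries and was not tested.

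The kinases that partner these cyclins were likewise not called. CDK1, the mitotic kinase, had 114, 162 and 184 CPM as lowest, median and highest values in Fsh libraries and 129, 141 and 187 CPM in control libraries, and its 95% interval ran from -0.20 to 0.35 on the log2 scale (adjusted p = 0.811). CDK2, the kinase of the G1 to S transition, averaged 80.7 ± 26.5 CPM in Fsh libraries and 57.6 ± 15.8 CPM in control libraries, with 39.5 CPM in the lowest Fsh library. Its log2 fold change was 0.49 ± 0.24 (adjusted p = 0.32), and 0.63 ± 0.20 without Fsh library 5 (adjusted p = 0.0978). CDK4 averaged 7.47 ± 0.826 CPM in Fsh libraries and 7.89 ± 1.4 CPM in control libraries, and CDK6 averaged 25.1 ± 5.5 CPM in Fsh libraries and 30.3 ± 5.42 CPM in control libraries. These 2 partners of cyclin D had log2 fold changes of -0.08 ± 0.15 and -0.27 ± 0.16. The gene cdk21, studied in the zebrafish male germ line, averaged 17.2 ± 1.45 CPM in Fsh libraries and 14.9 ± 4.03 CPM in control libraries (0.22 ± 0.17, adjusted p = 0.541).

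Over all 19 CDK genes, 11 were above 0, the median log2 fold change was 0.08, and 3 had an unadjusted p under 0.05 (15.8%, beside the 17.4% of all genes), all lower in Fsh libraries. That count was 6 (31.6%) without Fsh library 5 and 1 (5.26%) without Fsh library 6. The shares of all tested genes in these fits were 21.2% and 14.4%. The 3 were CDK18, cdk13 and CDK12. CDK12 and cdk13 phosphorylate RNA polymerase during transcription and are not kinases of the cycle itself. CDK12 averaged 81.3 ± 4.48 CPM in Fsh libraries and 96.7 ± 14.7 CPM in control libraries (-0.25 ± 0.10, adjusted p = 0.228), and cdk13 averaged 35.6 ± 4.87 CPM in Fsh libraries and 44 ± 5.8 CPM in control libraries (-0.31 ± 0.12, adjusted p = 0.191). CDK18, a kinase of the PCTAIRE group, had 15.3, 23.8 and 26.5 CPM in Fsh libraries and 24.1, 30.3 and 105 CPM in control libraries. The value of 105 CPM was that of control library 3, and the log2 fold change of -0.91 ± 0.34 (adjusted p = 0.186) became -0.38 ± 0.17 without it (adjusted p = 0.285). CDK15, of the related PFTAIRE group, averaged 6 ± 1.55 CPM in Fsh libraries and 4.22 ± 1.4 CPM in control libraries (0.51 ± 0.24, adjusted p = 0.29), and CDK20, known from cilia, averaged 51.1 ± 8.83 CPM in Fsh libraries and 64 ± 16 CPM in control libraries (-0.32 ± 0.17, adjusted p = 0.337). The other CDK genes, CDK5, CDK7, CDK8, CDK9, CDK10, CDK14, CDK16, CDK17 and CDK19, all had adjusted p-values between 0.354 and 0.947.

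The Cdc25 phosphatases, which switch CDKs on, were represented by cdc25b and cdc25d. The first averaged 89.3 ± 13.8 CPM in Fsh libraries and 103 ± 19.1 CPM in control libraries (-0.21 ± 0.14, adjusted p = 0.467). The second averaged 3.27 ± 1.13 CPM in Fsh libraries and 3.1 ± 1.04 CPM in control libraries (0.06 ± 0.27, adjusted p = 0.94). Both groups overlapped in each gene.

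Among the 11 genes of mitotic kinases, checkpoint and exit, a copy of PLK2 (ENSDARG00000019130) had the smallest p of the whole set. PLK2 belongs to the Polo-like kinase family, but is best known as a stress and growth factor response gene that acts on centrioles. Its values in Fsh libraries 1 to 6 were 17.6, 21.8, 18.2, 21.3, 36.7 and 27.6 CPM, and in control libraries 1 to 6 they were 13.9, 16.1, 14.7, 14.2, 16.4 and 10.2 CPM. The groups did not overlap. The log2 fold change was 0.74 ± 0.19 (95% interval 0.34 to 1.15, adjusted p = 0.063). Fsh library 5, with the value of 36.7 CPM, was the highest, and without it the fold change was 0.58 ± 0.15 (adjusted p = 0.0527), while without Fsh library 1 the adjusted p was 0.0375. Of the 12 fits that left out a single library, 1 called this gene, and the adjusted p ranged up to 0.123. The other PLK2 gene (ENSDARG00000090752) was also highest in Fsh library 5, at 27.6 CPM, and averaged 15.5 ± 6.1 CPM in Fsh libraries and 11.5 ± 4.31 CPM in control libraries (0.42 ± 0.26, adjusted p = 0.449). That library also held the highest summed leukocyte level of the Fsh libraries, 561 CPM, and the part of this level in the PLK2 values was not tested.

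The 11 genes, with both PLK2 genes among them, showed no common direction. The fold changes of the 11 were above 0 for 5 and had a median of -0.09, or 0.03 with 7 above 0 when Fsh library 5 and control library 3 were both left out. Apart from the PLK2 genes, which were above 0, those above 0 were plk1, AURKB and BUB3. Below 0 were aurka, bub1, bub1ba, bub1bb, PLK3 and PLK4. The kinase plk1, which drives mitotic entry, averaged 404 ± 62.2 CPM in Fsh libraries and 375 ± 53.4 CPM in control libraries (95% interval -0.17 to 0.38, adjusted p = 0.71). The Aurora kinase of the spindle poles, aurka, averaged 122 ± 25.2 CPM in Fsh libraries and 132 ± 31.3 CPM in control libraries (-0.11 ± 0.17). The Aurora kinase of the centromere, AURKB, averaged 52.2 ± 10.4 CPM in Fsh libraries and 50.9 ± 4.43 CPM in control libraries (0.04 ± 0.13). For these 3 kinases the difference between groups was smaller than the SD within either group. PLK3 and PLK4, of which PLK4 starts the copying of centrioles, had adjusted p-values of 0.623 and 0.743.

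The spindle checkpoint genes had log2 fold changes between -0.41 and 0.16. The BubR1 kinase gene bub1bb had 127, 146 and 188 CPM as lowest, median and highest values in Fsh libraries and 146, 198 and 253 CPM in control libraries. All 6 Fsh libraries lay below the control mean of 198 CPM, but the groups overlapped, and the log2 fold change was -0.37 ± 0.14 (adjusted p = 0.187). The second gene of that name, bub1ba, averaged 96.5 ± 13.3 CPM in Fsh libraries and 102 ± 14.8 CPM in control libraries (-0.09 ± 0.12, adjusted p = 0.763). The kinase gene bub1 averaged 67.2 ± 18.3 CPM in Fsh libraries and 89 ± 20.4 CPM in control libraries (-0.41 ± 0.20, adjusted p = 0.325), and its lowest value, 35.4 CPM, was that of Fsh library 5. BUB3 averaged 48.3 ± 7.98 CPM in Fsh libraries and 43.2 ± 4.3 CPM in control libraries (0.16 ± 0.12, adjusted p = 0.522). None of these 4 passed the test.

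The 2 general markers of proliferation were not higher on average in Fsh libraries. The gene mki67, whose protein coats mitotic chromosomes and marks cycling cells, had 556, 642 and 738 CPM as lowest, median and highest values in Fsh libraries and 546, 820 and 984 CPM in control libraries. All 6 Fsh libraries lay below the control mean, the control libraries spread more widely, and the log2 fold change was -0.26 ± 0.16 (95% interval -0.60 to 0.07, adjusted p = 0.415). TOP2A, the topoisomerase that untangles replicated DNA, averaged 259 ± 56.3 CPM in Fsh libraries and 262 ± 50.9 CPM in control libraries (-0.01 ± 0.17, adjusted p = 0.98).

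Lists of further cell cycle genes outside the set were read from the same fit. They include the 32 polymerase and fork genes and the 7 nucleotide supply genes already given. Of these, 28 and 7 were above 0, and 12 and 3 had an unadjusted p under 0.05. Over 156 tested genes in 8 lists, 0 passed the test as higher and 1 as lower, 101 had fold changes above 0, and 29 (18.6%) had an unadjusted p under 0.05, beside 50.3% above 0 and 17.4% with such a p over all tested genes. DESeq2 called 4 higher (TFDP1, RNASEH2A, RFC2 and cenpe) and 2 lower (MYC and CDKN1B), and limma-voom called TFDP1 higher and MYC lower. Of all genes tested, edgeR called 1.63%, DESeq2 called 5.51%, and limma-voom called 198 higher and 163 lower of 19317. The gene that fell was a copy of MYC (ENSDARG00000007241), the growth-promoting transcription factor, which averaged 33.1 ± 7.79 CPM in Fsh libraries and 52.4 ± 6.97 CPM in control libraries. Its log2 fold change was -0.66 ± 0.15 (95% interval -0.99 to -0.33, adjusted p = 0.0469), all 6 Fsh libraries lay below the control mean, and the adjusted p ranged up to 0.113 when single libraries were left out, staying under 0.05 in 3 of the 12 such fits, and was 0.0568 with no filter on low counts. The other MYC gene (ENSDARG00000045695) averaged 10.7 ± 1.93 CPM in Fsh libraries and 11 ± 2.14 CPM in control libraries. In the same list of E2F factors and regulators, with 25 tested and a median of 0.13, TFDP1 (ENSDARG00000016304), the DNA-binding partner of E2F, averaged 44.1 ± 10.2 CPM in Fsh libraries and 20.8 ± 14.3 CPM in control libraries. Control library 6, at 49.5 CPM, stood among the Fsh values, while the other 5 control libraries lay between 11.2 and 18.6 CPM, below every Fsh library. The log2 fold change was 1.08 ± 0.32 (adjusted p = 0.106, and 0.024 with DESeq2 and 0.0479 with limma-voom), and edgeR's adjusted p was 0.00158 without control library 6, the lowest of the 12 fits that left out a library.

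The remaining lists had medians between -0.05 and 0.09. The kinase inhibitors and pocket proteins had 5 of 11 above 0 and a median of -0.00, and CDKN1B (ENSDARG00000029018), the p27 inhibitor of CDK2, averaged 18.6 ± 3.71 CPM in Fsh libraries and 28.5 ± 7.58 CPM in control libraries (-0.62 ± 0.18, adjusted p = 0.0985). The adjusted p of CDKN1B was 0.0441 without Fsh library 5 and 0.0314 with DESeq2. No other fit that left out a single library called CDKN1B. The checkpoint kinase list had 4 of 9 above 0 and 0 with an unadjusted p under 0.05, and ATM, the DNA break sensor, averaged 94.3 ± 22.3 CPM in Fsh libraries and 77.5 ± 13.9 CPM in control libraries. The anaphase-promoting complex had 8 of 16 above 0 and a median of 0.00, with ANAPC4 as its smallest p (0.33 ± 0.12, adjusted p = 0.19). Kinetochore and spindle genes had 21 of 36 above 0 and a median of 0.03. Of the 36, 27 were above 0 without Fsh library 5 (median 0.07), 24 without control library 3 (0.04) and 17 without Fsh library 4 (-0.03). With Fsh library 5 and control library 3 both left out, 29 of these genes were above 0 (median 0.09). Their motor protein cenpe averaged 551 ± 105 CPM in Fsh libraries and 348 ± 84.7 CPM in control libraries, with all 6 Fsh libraries above the control mean (0.66 ± 0.18, adjusted p = 0.0764). The adjusted p of cenpe was 0.0257 without Fsh library 5, 0.0285 without control library 6 and 0.0135 with DESeq2. It was called in no other fit that left out a single library. Over all tested genes, 167 were called higher and 148 lower with all libraries. These counts were 317 and 441 without Fsh library 5, and 373 and 327 without control library 6, and DESeq2 called 5.51% of genes. Cohesin and condensin genes had 13 of 20 above 0 with a median of 0.09, and ESCO2, which acetylates cohesin during replication, averaged 210 ± 40 CPM in Fsh libraries and 149 ± 36.9 CPM in control libraries (0.50 ± 0.18, adjusted p = 0.168).

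**Figure D5:**
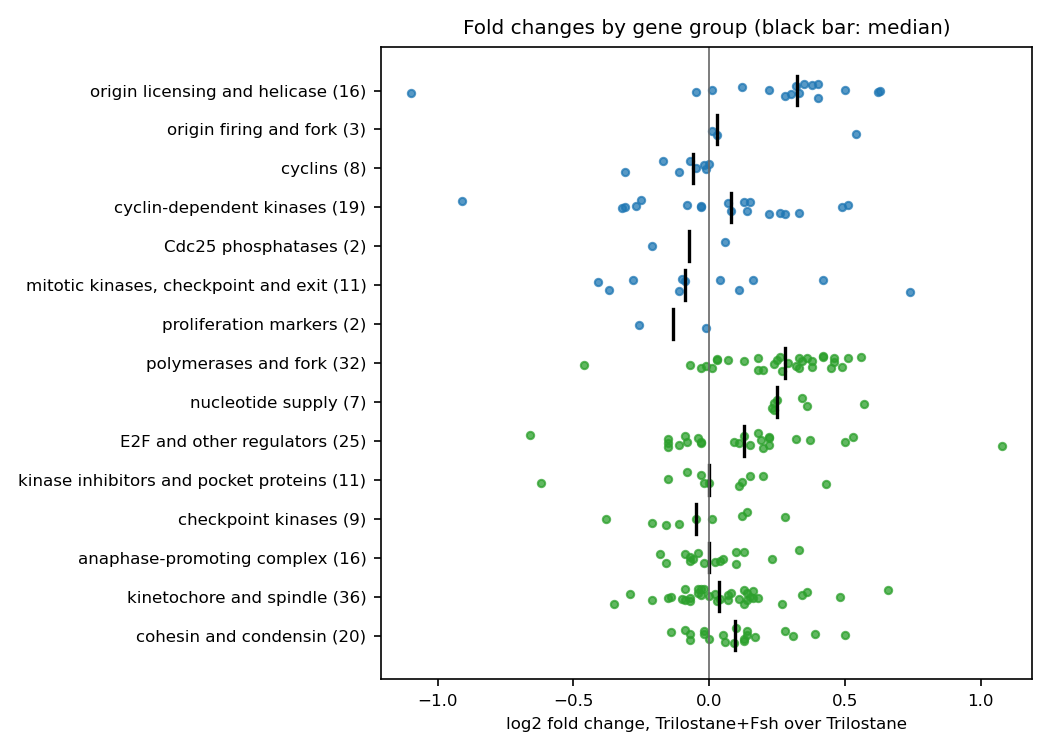
Log2 fold change, Trilostane+Fsh over Trilostane, of each tested gene (points), by role in the gene set (blue) and by list of further pathway genes (green), with the number tested in brackets. Black bars are medians, at 0.32, 0.28 and 0.25 for the licensing, polymerase and nucleotide groups and at -0.06 for the cyclins; genes of a group move together within libraries, so the points are not independent.

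The 11 genes taken in by spelling encode proteins with other functions, among them CDC73 of transcription elongation, mcm3ap of RNA export, cdk5rap2 of centrosomes and the activators of the neuronal kinase CDK5. Of these, 8 were tested, 0 passed, 3 were above 0 and 0 had an unadjusted p under 0.05. CDC73 had the smallest p, with 54.6 ± 3.11 CPM in Fsh libraries and 62.8 ± 9.31 CPM in control libraries (-0.20 ± 0.11, adjusted p = 0.351). The untested were 3 genes for CDK5 activators, each with at most 39 counts summed over a group. Without the 11 genes, 61 tested members remained, with a median of 0.04 and the same 14 at an unadjusted p under 0.05.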

How the data were processed

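The deposited values are whole-number read counts per Ensembl gene ID, not normalized by the authors as the totals show. CASAVA 1.8, STAR 2.3 and HTSeq and the build Zv9 are named in the submitters' processing notes; the annotation release, strandedness and treatment of multiply mapped reads were not given in the sources used here, so 5 symbols shared by 2 IDs (CCND2, PLK2, MCM6, CDK5R1, CDK5R2) may have split reads. Symbols came from a table of Ensembl IDs. Genes kept by edgeR's filterByExpr were scaled by TMM and tested with edgeR 4.0.16 (limma 3.58.1, DESeq2 1.42.0, R 4.3.3) by glmQLFit and glmQLFTest, 6 against 6 libraries, without covariates, with Benjamini-Hochberg adjustment over all tested genes and a threshold of 0.05. Standard errors are the fold change over the root of F. The fit was tested on simulated counts. Floors for a count of 0 (3 counts) cover counting error only, since PCR reads are not independent molecules. The members and lists were chosen with earlier results of these data known. Genes named in full are the core replication, cyclin and kinase symbols, the 12 members with the smallest p, the 5 highest and 5 lowest fold changes, and, of the further lists, each called gene and each list's smallest p. Further members are described beside them. Promoter motifs were not analysed here, and gene positions on Zv9 were not used here. Alternatives were other scalings, filters and tools, a replicate block and leaving out each library.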

Additional observations from a re-analysis of the deposited data

Results flagged for a closer look

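In 3 of 72 groups of 6 libraries (36 named genes in 2 groups), one library lay beyond Dixon's 95% critical value for its gap to the rest, which chance alone passes in about 1 of 20 groups. CCND2 (ENSDARG00000051748) was at 26.8 CPM in Fsh library 5, with the nearest Fsh library at 15 CPM and the lowest at 10.8 CPM. CDK18 was at 105 CPM in control library 3, with the nearest control library at 35.9 CPM and the lowest at 24.1 CPM. ORC3 was at 23.4 CPM in control library 3, with the nearest at 35.5 CPM and the highest at 42.7 CPM.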

How the results depend on the processing

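The count of called genes was 315, and 1061 with DESeq2, 569 with Fsh library 5 and control library 3 both left out (chosen after seeing the data) and 95 (without Fsh library 2) to 758 (without Fsh library 5) with single libraries left out; it moved by over 1.5 times without Fsh library 1, 2, 3, 4, 5 or 6 or control library 1, 4, 5 or 6. The count of called members was 0, and 1 with library size as the only scaling or upper quartile scaling (PLK2, adjusted p = 0.0451 and 0.0474), 3 with DESeq2, and 0 to 1 with single libraries left out (PLK2 without Fsh library 1, MCM9 without Fsh library 5). The labels do not say whether same-numbered libraries of the 2 groups are paired, and the main fit did not pair them. Such libraries correlated at 0.022 to 0.264, and 2 of 6 correlated best with their own number. These correlations are too weak to show pairing and cannot exclude it. A replicate block gave 381 called genes and 1 called member, MCM3 (-1.45 ± 0.27, adjusted p = 0.038), for which libraries 1, 4 and 5 were the 3 highest of each group; of the further lists it called TFDP1 higher and MYC lower. With single libraries left out, 18 of 69 tested members had fold changes on both sides of 0, among them CDC45 (-0.10 to 0.18), CDC7 (-0.09 to 0.09), MCM8 (-0.02 to 0.26), mcm3l (-0.19 to 0.04), ccnd3 (-0.13 to 0.06) and cdc25d (-0.13 to 0.20). Of the core genes named by rule, those that changed sign under any alternative were CCNA2 (0.04 with both libraries left out, 0.04 by library size, 0.02 by upper quartile, 0.01 without the low-count filter, with 1 CPM in 6 libraries or without the 50 most abundant genes, -0.05 to 0.04 leaving out single libraries), CCNB2 (0.01, 0.02, 0.01, 0.00, 0.00 and 0.00 in the same order, -0.09 to 0.04), TOP2A (0.07, 0.03 and 0.01 under the first 3, -0.10 to 0.10), CCND2 ENSDARG00000070408 (0.00 by library size, -0.10 to 0.04), CDC6 (-0.10 with both left out, -0.14 to 0.11), aurka (0.01) and ccnb3 (0.02) with both left out, and AURKB (-0.05 to 0.11). The cause was not tested. Depth limits ccndx and the CDK5 activators.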
